A study of Mus musculus with 16 samples.

Results

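H3K4me3 was compared between Kdm5c knockout (KO) and wild-type (WT) hippocampus after novelty, in the 4 libraries whose titles and treatment labels mark them as H3K4me3 after 1 h of novelty, out of 16 libraries in the series. Both groups, with 2 libraries each, came from adult male mice 2 to 4 months old of a mixed F1 background of C57 and 129, and the WT mice were littermates of the mutants. Each library pooled the hippocampi of 2 mice that had spent 1 h in a box with tubing and toys. The KO mice carried the mutant Kdm5c allele in the whole animal as far as the labels say, and the labels do not say which part of the gene was deleted. The 4 matching libraries under standard conditions, 2 WT and 2 KO, served for comparison, and the H3K4me1 and Kdm5C libraries (1 WT and 1 KO each, pure C57BL/6J, no novelty) only for description. The H3K4me3 libraries titled ifwt and ifKO, 2 of each, were not compared here but entered the fit behind the scaling and the p-values. Counts were available for all 35996 distinct regions of the deposited set, and 35955 passed a filter on low counts.

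H3K4me3, trimethylation of lysine 4 of histone H3, is found at the start sites of active and poised genes. Kdm5c is an X-linked demethylase that removes methyl groups from this lysine, and in several cell types it holds germ cell genes silent together with repressors such as E2F6 and MGA. A new environment activates hippocampal neurons, which respond with a rapid wave of transcription of immediate early genes such as Fos, Arc and Npas4.

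The novelty libraries held 23265704 and 29105241 counts in WT and 30435735 and 23914024 in KO, within the range of 18181192 to 30435735 of all 12 H3K4me3 libraries. Replicates correlated across regions with r of 0.992 (WT) and 0.991 (KO), and their differences exceeded counting error, with a chi-square of 2.58 and 2.44 for each degree of freedom. Levels are given as CPM, counts for every 1000000 of the library size scaled by its TMM factor, and a floor of 3 counts lay at 0.0986 to 0.129 CPM in the 4 libraries. Markers of the labelled tissue carried the mark in all 4 libraries, with 32 of 33 pyramidal and granule neuron genes having a region, among them Camk2a at 142 and 158 CPM in WT and 166 and 163 in KO. Genes of neighbouring tissues carried it in part. Of 13 choroid plexus and ependyma genes 6 had a region, summing to 82.4 to 92.6 CPM in a library, while Ttr and Otx2 were among those without, and of 22 genes of striatum, thalamus and hindbrain 17 had a region, summing to 508 to 548 CPM, while Hoxb3 and Hoxb4 were among those without. Their part in the results was not tested. The p-values rest on the spread between pools in all 6 H3K4me3 groups. Among these the ifWT and ifKO replicates differed more, with a chi-square of 4.46 and 7.64 for each degree of freedom. In tissue a smaller share of cells with the mark cannot be told apart from less mark per cell.

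Under TMM factors, loss of Kdm5c was accompanied after novelty by more H3K4me3 at weak regions, both at gene ends and away from them. The strongest regions had slightly less, but their calls were mostly higher when an offset was fitted to region strength. With that offset the median change below 1 log2 CPM was -0.01 (log2), against 0.19 under TMM factors. More of those weak regions were still called higher than lower. A region is called higher or lower, or said to have risen or fallen, where the edgeR quasi-likelihood test gave a Benjamini-Hochberg adjusted p under 0.05 over all regions. Of 35955 regions, 6118 were called (17.0%), 3981 of them higher (11.1%) and 2137 lower (5.94%). The rises were the larger changes, since 1545 regions rose at least 2-fold and 38 fell at least 2-fold. With offsets fitted to strength these numbers were 1049 and 113. The median change was 0.82 (log2) among higher regions and -0.21 among lower ones. The levels of the 2 KO libraries lay apart from those of the 2 WT libraries at all 3981 higher and 2134 of the lower regions, against 59.2% of all regions. The balance of rises and falls depended on the scaling, with 65.1% of calls higher under TMM factors, 56.4% under RLE factors, 54.6% with DESeq2, 82.1% where library totals set the scale and 72.8% where an offset was fitted to the strength of the regions. Leaving out WT novelty replicate 2 left 2239 called regions, of which 275 were lower, leaving out KO novelty replicate 1 left 2933 and 492, and leaving out KO novelty replicate 2 left 3321 and 642.

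**Figure D1:**
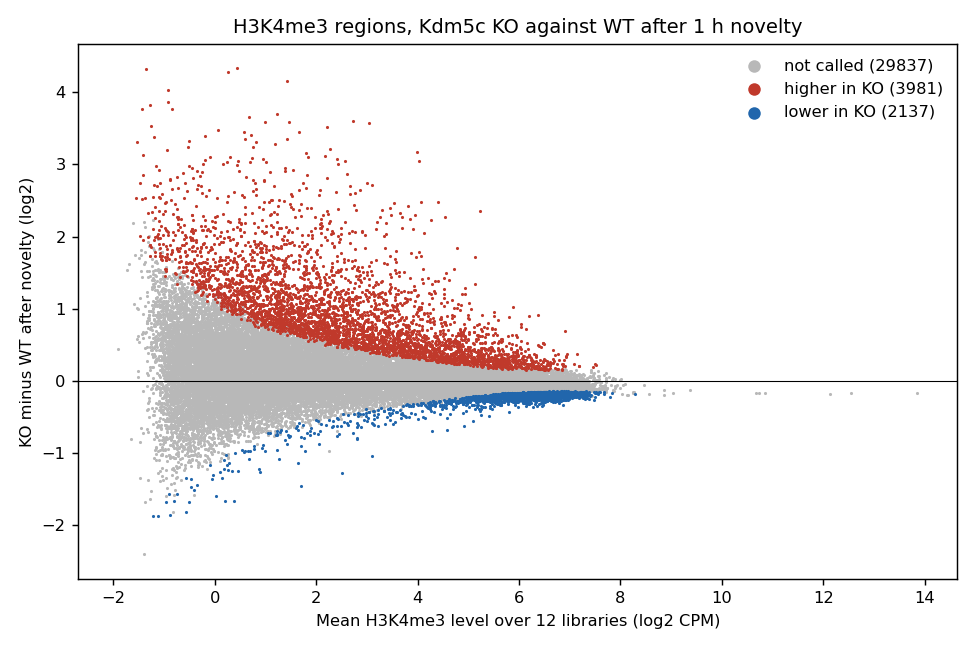
Difference between KO and WT after novelty (y axis, log2) against the mean level over 12 libraries (x axis, log2 CPM), with 1 point per tested region. The 3981 higher regions (red) spread up to large changes at weak and middling levels, and most of the 2137 lower regions (blue) form a narrow band at strong regions.

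The direction followed the strength of the region. Among the 6112 strongest regions, with a mean of at least 6 log2 CPM, 1312 fell (21.5%) and 152 rose (2.49%), with a median of -0.10 (log2). In the class from 2 to 4 log2 CPM, 1316 of 6479 regions rose (20.3%) and 91 fell (1.40%). Among the 10586 weakest, below 1 log2 CPM, 848 rose and 44 fell. With offsets fitted to strength 511 of these were higher and 124 lower. The strongest regions took 60.8% and 61.8% of all counts in the WT novelty libraries and 59.4% in each KO novelty library, and regions below 2 log2 CPM took 2.31% and 2.04% in WT and 2.66% and 2.63% in KO. When an offset was fitted to strength in each library, 492 of the strongest regions were higher and 250 lower, so the direction in that class turned, and with library totals 270 were higher and 612 lower.

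**Figure D2:**
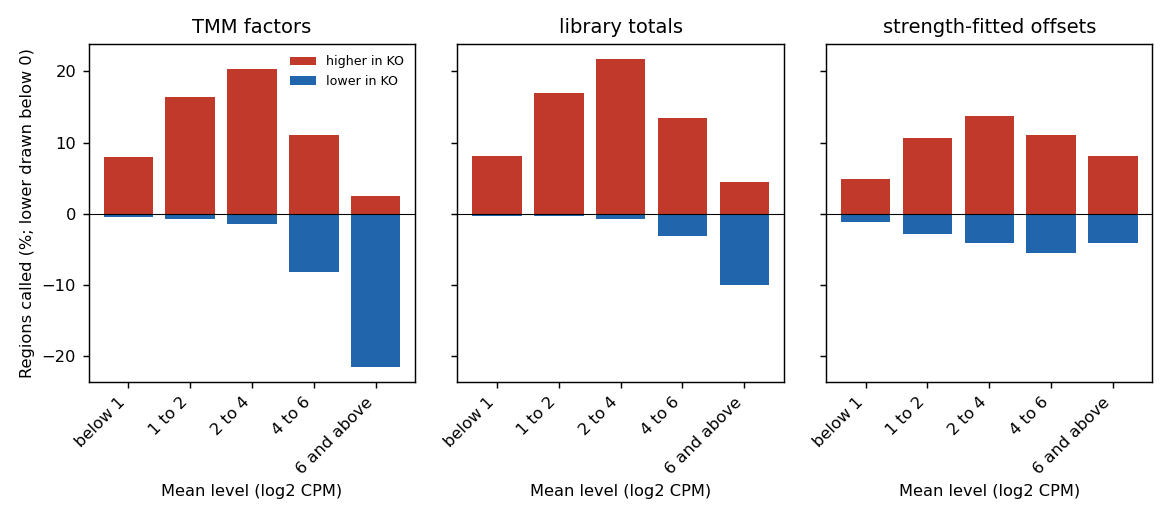
Share of regions called higher (red, above 0) and lower (blue, below 0) in KO after novelty (y axis, percent) in 5 classes of mean level (x axis, log2 CPM), under 3 scalings. Under TMM factors 21.5% of the strongest regions were lower, and under offsets fitted to strength more of them were higher (492) than lower (250).

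Position split the calls as well. Gene-end regions are those up to 2 kb from a RefSeq start, or from either end of a gene with no listed start. In the latter case the end may be the start of the gene. At the 20012 gene ends 1736 rises met 2015 falls, while the 9866 regions inside genes had 1474 and 96 and the 6077 between genes 771 and 26. The balance at gene ends turned with the scaling, to 2039 higher and 897 lower under library totals and 1742 higher and 964 lower with offsets fitted to strength. With those offsets 1034 regions inside genes were higher and 177 lower, and between genes 507 and 86. At matched strength, from 2 to 4 log2 CPM, 26.2% of regions inside genes and 23.2% of those between genes rose, against 16.1% of gene ends. From 4 to 6 log2 CPM these shares were 26.1%, 31.3% and 8.99%. Of the 1545 regions that rose at least 2-fold, 47.0% lay inside genes and 31.3% at gene ends, where 55.7% of all tested regions lie. Gene ends of long noncoding RNA genes rose in 606 of 2315 cases (26.2%) and fell in 28, whereas gene ends of protein-coding genes rose in 1021 of 16470 (6.20%) and fell in 1971 (12.0%). The mean level of the noncoding ends was also lower, with a median of 1.90 against 5.54 log2 CPM. On the X chromosome, which carries Kdm5c, 70 of 960 regions rose (7.29%) and 30 fell (3.12%), against 11.2% and 6.03% on the autosomes.

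The Kdm5C file covers 2321 regions, and 2314 of the tested H3K4me3 regions overlap one of these. In this set 236 regions rose (10.2%) and 244 fell (10.5%). With offsets fitted to strength the numbers were 335 higher (14.5%) and 36 lower (1.56%), against 2948 higher (8.76%) and 1191 lower (3.54%) of the 33641 other regions. Only 6 of the 1545 regions that rose at least 2-fold overlapped a region of the Kdm5C file (0.388%), against 6.44% of all tested regions. These shares are not matched for strength. The median level was 1.03 log2 CPM in the 1545 regions and 2.71 in all tested ones, and 0 of the 6112 strongest regions rose at least 2-fold. Of the 396 regions wider than 3000 bp, 59 rose and 21 fell, and with offsets fitted to strength 137 were higher and 3 lower.

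The regions with the largest rises were close to empty in WT. Inside Ssh1, which encodes a phosphatase of the actin regulator cofilin (chromosome 5, 113942805 to 113943958 of mm10), only 11 and 6 reads were counted in WT against 203 and 130 in KO. The WT pair together made 0.324 CPM, with an exact 95% Poisson interval of 0.189 to 0.519, and the KO libraries stood at 6.45 and 5.29 CPM. The difference was 4.16 ± 0.32 (log2 ± SE, edgeR adjusted p 2.2e-11), while the region at the Ssh1 start did not differ past the threshold (-0.10 ± 0.06). A region 10887 bp from Cdk19, a kinase gene of the Mediator complex, had 0.295 and 0.452 CPM in WT and 4.80 and 5.25 in KO. A gene-end region of Gins2, a DNA replication gene, had 0.802 and 1.01 CPM in WT and 9.22 and 13.3 in KO. A region inside Dym, a Golgi protein gene, had 1.06 and 0.765 CPM in WT and 10.7 and 9.93 in KO. In each of these the KO libraries were about an order of magnitude above the WT libraries, with differences of 3.7, 3.6 and 3.52 (log2). The remaining members of the 10 largest rises were regions at or near Gm33919 (3.58), Zfp532 (3.57), Slc23a4 (3.45), Gm29642 (3.35), 4930452G13Rik (3.28) and Glp2r (3.22). None of the 10 overlapped a region of the Kdm5C file. All 10 kept their call in all 13 settings, which differ in scaling, filter, tool, libraries fitted and library left out.

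Strong rises were fewer. Rps4l, a ribosomal protein pseudogene, went from 17.1 and 12.9 CPM in WT to 76.7 and 75.9 in KO (2.36 ± 0.10, edgeR adjusted p 5.9e-17). It resembles the X-linked Rps4x, and the treatment of reads with several matches is not stated in the labels, so this count is uncertain. The start of Ntn3, a netrin gene (chromosome 17, 24207834 to 24209415), went from 17.6 and 17.2 CPM to 54.7 and 60.1 (1.72 ± 0.08, adjusted p 6.1e-17). Nsd1, a histone methyltransferase gene mutated in Sotos syndrome, has no listed start. A region 63 bp from 1 of its ends (chromosome 13, 55209845 to 55211537) had 39.5 and 37.5 CPM in WT and 79.3 and 77.7 in KO. This was close to a doubling (1.03 ± 0.06, edgeR adjusted p 6.6e-14). The next region inside Nsd1 did not follow, with 55.4 and 53.5 CPM in WT and 51.6 and 51.4 in KO (-0.08 ± 0.07, adjusted p 0.46). A region inside Arhgap27, a gene of a GTPase-activating protein, went from 19.6 and 18.8 to 47.4 and 49.6 CPM (1.34 ± 0.08). A gene-end region of the noncoding Gm32700 went from 50.5 and 47.6 to 91.6 and 92.0 (0.91 ± 0.06). Both of these overlapped a Kdm5C region, where the deposited Kdm5C signal per base was 3.52 in WT and 1.3 in KO for Arhgap27 and 4.89 and 1.14 for Gm32700.

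Cacng6, a calcium channel gamma subunit gene, had the largest rise among the listed genes outside the germ cell list. Its start region (chromosome 7, 3423573 to 3425168) had 2.49 and 3.76 CPM in WT and 27.0 and 30.2 in KO (3.17 ± 0.15, edgeR adjusted p 1.4e-16). The adjoining region, singled out after its values were seen, had 2.41 and 2.26 CPM in WT and 15.1 and 15.5 in KO, 6.55-fold higher. The other called subunit, Cacng7, was lower, at 34.4 and 41.5 CPM in WT and 32.1 and 28.3 in KO (-0.33 ± 0.08, adjusted p 0.005). That call was lost without WT novelty replicate 2 (-0.19) and without KO novelty replicate 2 (-0.25). The remaining 5 of 7 measured subunits did not pass.

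Falls were shallower and lay partly at weak regions. The largest named fall was at the start of Ogn, which encodes a matrix proteoglycan of the meninges (chromosome 13, 49608272 to 49610082), with 5.74 and 3.17 CPM in WT and 1.02 and 2.28 in KO (-1.46 ± 0.30, edgeR adjusted p 0.00064). Without WT novelty replicate 1 it was -0.98 (adjusted p 0.053) and without KO novelty replicate 1 it was -0.95 (0.07), so it rests on those libraries. Ptgis, the prostacyclin synthase gene, had a region inside it with 4.22 and 4.14 CPM in WT and 1.65 and 2.2 in KO (-1.13 ± 0.22, adjusted p 0.0005). The noncoding Gm35479 had 9.12 and 12.7 CPM in WT and 5.91 and 4.68 in KO (-1.04 ± 0.16, adjusted p 1.7e-05). These last regions kept their call in all 13 settings, and the remaining 8 of the 10 largest falls did not. Without WT novelty replicate 2 the values that lost their call were -1.0 at Cdk5rap1, -1.19 at Snd1, -0.78 at Hectd4, -0.88 near Mzt1, -0.78 at Gm30706 and -0.81 at Oas1a. Without KO novelty replicate 1 they were -0.59 at Snd1, -0.81 at Hectd4, -0.76 at Gm30706, -0.56 at 1810007D17Rik and -0.74 at Oas1a. Without KO novelty replicate 2 they were -0.79 at Cdk5rap1 and -0.86 near Mzt1, and without WT novelty replicate 1 they were -0.97 at Snd1 and -0.69 at 1810007D17Rik.

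The 5 falls of smallest p at strong regions were small in size. The start of Cxcl12, a chemokine gene, had 60.2 and 62.8 CPM in WT and 45.6 and 46.1 in KO (-0.42 ± 0.07, edgeR adjusted p 2.4e-05). Ier5l had 124 and 125 CPM in WT and 101 and 97.1 in KO (-0.33 ± 0.05). Ubtf, a transcription factor gene for ribosomal DNA, had 80.8 and 86.2 CPM in WT and 67.1 and 64.7 in KO (-0.34 ± 0.06). Eps8, an actin regulator gene, and Dot1l, a histone methyltransferase gene, fell by 0.32 ± 0.06 and 0.31 ± 0.06 on the log2 scale. In all 5 the lower WT library lay above the higher KO library, which the rule required. All 5 kept their call in the 13 settings, offsets fitted to strength included. They were picked for a small p and do not stand for the other falls, since only 103 of 2137 lower regions held in every setting.

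**Figure D3:**
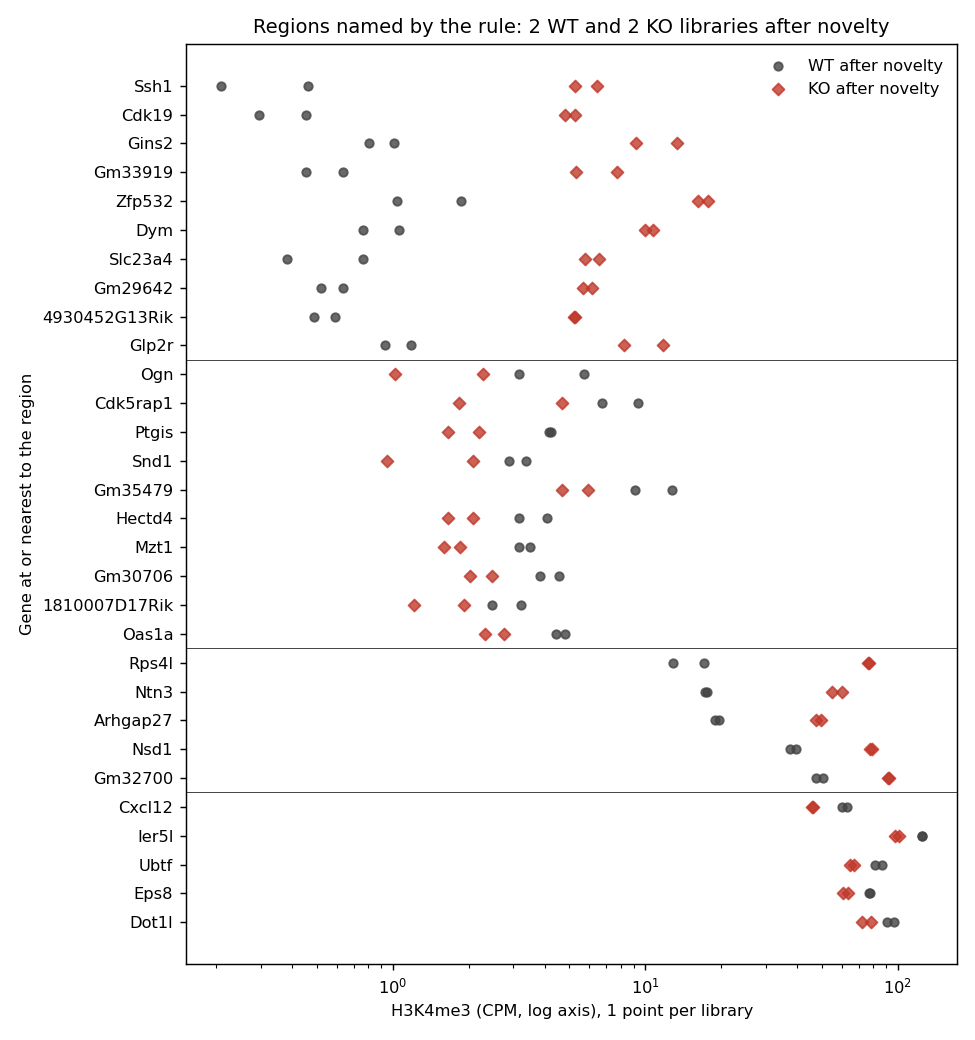
H3K4me3 level in each library (x axis, CPM on a log axis) at the regions named by the rule (y axis, nearest gene), with WT after novelty as circles and KO after novelty as diamonds. From top to bottom the blocks hold the 10 largest rises, the 10 largest falls, the 5 strong rises and the 5 strong falls of smallest p. The KO and WT points do not overlap at any of them, which the rule required.

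Germ cell and meiosis genes, normally silent in brain, were the listed group with the most rises. Each listed gene was read at its gene-end region of highest total count. Among 13391 such regions of protein-coding genes 5.02% were higher and 13.8% lower, with a median of -0.08 (log2). These shares are the background for the counts of every list, but they are not matched for strength. Among all gene ends below 1, from 1 to 2 and from 2 to 4 log2 CPM, 9.50%, 14.6% and 16.1% rose. In the same classes 0.564%, 1.03% and 1.97% fell. Of 46 germ cell genes 24 had a region, 9 of these rose and 0 fell, with a median of 0.12. The 9 that rose were weak regions, with a median level of 1.20 log2 CPM. The other 22 genes, among them Sycp1, Piwil1, Piwil2 and Mael, had no region, and because the making of the region set is not described, the 24 measured genes cannot stand for the list. Of the list, 8 were higher with DESeq2, 8 and 6 when WT novelty replicate 1 or 2 was left out, and 7 when either KO novelty replicate was. D1Pas1, a testis RNA helicase gene, had 4 and 3 counts in WT and 66 and 83 in KO, with a fitted difference of 4.29 ± 0.46 (edgeR adjusted p 2.1e-08). Cyct, the testis cytochrome c gene, had 1 and 8 counts in WT against 65 and 45 in KO. Summed over each genotype this is 0.172 CPM (exact Poisson interval 0.0785 to 0.326) against 1.96 CPM (1.61 to 2.37). Both have close copies elsewhere in the genome, so their counts are uncertain. Stk31, a testis kinase gene, had 0.507 and 0.313 CPM in WT and 2.86 and 3.3 in KO (2.92 ± 0.35, adjusted p 1.6e-07). Sycp3, a gene of the axis that meiotic chromosomes form, had 1.18 and 1.08 CPM in WT and 4.07 and 4.15 in KO (1.86 ± 0.25, adjusted p 1.4e-06).

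Ddx4, a germ cell helicase gene, had 0.760 and 0.452 CPM in WT and 1.59 and 2.12 in KO (1.62 ± 0.39, edgeR adjusted p 0.0037), and its call was lost at 1.27 without WT novelty replicate 2 and at 1.41 without KO novelty replicate 2. The X-linked Nxf2, an RNA export gene, had 1.73 and 1.64 CPM in WT and 3.46 and 4.19 in KO (1.18 ± 0.24, adjusted p 0.00076). Rises of under 1 log2 unit were found at starts shared with a neighbour. The start shared by Tex14 and the DNA repair gene Rad51c went from 32.0 and 33.3 to 45.5 and 48.9 CPM (0.53 ± 0.07), that of Stag3 and Gpc2 by 0.43 ± 0.12 and that of Smc1b and Ribc2 by 0.34 ± 0.12. The Stag3 call was lost at 0.40 and 0.46 when WT novelty replicate 1 or 2 was left out and at 0.36 when KO novelty replicate 1 was. The Smc1b call was lost at 0.24 when WT novelty replicate 2 was left out and at 0.25 and 0.42 when KO novelty replicate 1 or 2 was. With offsets fitted to strength neither was called (Stag3 0.34 and Smc1b 0.25), and Smc1b was not called with DESeq2 (adjusted p 0.094). In these shared cases the counts cannot be given to either gene. Dazl at 0.11 ± 0.09 and Prdm9 at 0.00 ± 0.06 did not pass, and both already carried the mark in WT, at 21.4 and 23.1 CPM and at 66.6 and 65.4 CPM. Rec8 was under 0.3 CPM in all 4 libraries.

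The promoters of 5 of the germ cell genes that rose from a weak mark in WT, and that of Cacng6, are printed as the 250 bases before the listed RefSeq start (GRCm38.p6), chosen after their values were seen, 5′ to 3′ along the gene. Capitals mark CACGTG, the E-box that MGA with MAX can bind, and TCCCGC or its reverse complement GCGGGA, the core that E2F6 can bind.
Sycp3, chr10:88459337-88459586, plus strand: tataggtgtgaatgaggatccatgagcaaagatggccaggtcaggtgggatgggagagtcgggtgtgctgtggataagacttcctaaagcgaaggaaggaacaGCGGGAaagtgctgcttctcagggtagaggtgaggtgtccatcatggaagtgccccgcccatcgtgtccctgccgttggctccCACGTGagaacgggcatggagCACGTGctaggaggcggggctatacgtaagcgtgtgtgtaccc
Stk31, chr6:49395289-49395538, plus strand: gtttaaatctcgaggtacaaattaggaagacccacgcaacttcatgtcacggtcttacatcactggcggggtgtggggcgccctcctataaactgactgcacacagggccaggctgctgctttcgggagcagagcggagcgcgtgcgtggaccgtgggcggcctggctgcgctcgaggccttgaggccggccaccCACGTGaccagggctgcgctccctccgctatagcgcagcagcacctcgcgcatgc
Ddx4, chr13:112652311-112652560, minus strand: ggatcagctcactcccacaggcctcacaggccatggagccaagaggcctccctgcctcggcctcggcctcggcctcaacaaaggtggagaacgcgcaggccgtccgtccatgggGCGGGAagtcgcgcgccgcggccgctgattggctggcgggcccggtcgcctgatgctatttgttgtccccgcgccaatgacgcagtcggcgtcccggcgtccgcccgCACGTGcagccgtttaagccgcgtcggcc
D1Pas1, chr1:186967166-186967415, plus strand: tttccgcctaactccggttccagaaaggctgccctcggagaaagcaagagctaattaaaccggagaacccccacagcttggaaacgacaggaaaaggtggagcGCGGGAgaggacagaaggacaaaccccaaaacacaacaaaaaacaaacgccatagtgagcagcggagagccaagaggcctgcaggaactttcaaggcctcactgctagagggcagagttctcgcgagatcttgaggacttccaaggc
Cyct, chr2:76360454-76360703, minus strand: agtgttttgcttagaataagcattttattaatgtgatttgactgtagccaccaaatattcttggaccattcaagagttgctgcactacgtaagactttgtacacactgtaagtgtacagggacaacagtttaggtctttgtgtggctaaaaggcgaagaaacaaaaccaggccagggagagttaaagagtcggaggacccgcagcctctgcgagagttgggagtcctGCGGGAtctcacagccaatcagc
Cacng6, chr7:3424412-3424661, plus strand: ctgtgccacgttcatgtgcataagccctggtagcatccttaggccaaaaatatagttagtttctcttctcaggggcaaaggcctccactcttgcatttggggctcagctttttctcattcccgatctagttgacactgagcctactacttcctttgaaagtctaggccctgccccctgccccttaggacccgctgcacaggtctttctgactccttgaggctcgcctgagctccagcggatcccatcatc
Sycp3 and Ddx4 hold both motifs, Stk31 holds CACGTG, D1Pas1 and Cyct hold the E2F core and Cacng6 holds neither. Among the starts in tested regions, 8.29% of 12538 such windows held CACGTG (a palindrome, so both strands are read at once) and 30.9% held TCCCGC on either strand. Of the 9 germ cell promoters that rose, 4 held CACGTG and 7 held the E2F core, and of the 8 with a listed start that did not rise 1 and 5 did. Of all 736 promoters higher in KO, 8.97% held CACGTG and 19.8% the E2F core, and of 1752 lower ones 7.99% and 37.2%. The windows also differed in CpG content, with a median of 8 CpG in the higher, 20 in the lower and 16 in all tested promoters, and in mean level, at 4.57, 6.34 and 5.88 log2 CPM. A match is a description of the letters only.

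Among 23 listed repressors of germ cell genes 1 rose and 6 fell (median -0.12), against 13.8% lower and a median of -0.08 among all protein-coding representatives, and none of the 6 falls held in all 13 settings. Mga, the E-box repressor of the complex, was the riser, with 49.5 and 43.3 CPM in WT and 60.8 and 59.0 in KO (0.37 ± 0.07, edgeR adjusted p 0.00013) in all 13 settings. Its region had the highest Kdm5C signal of the listed repressors, 10.8 per base in WT and 1.48 in KO. Its partner Max had 57.5 and 65.7 CPM in WT and 51.4 and 52.3 in KO (-0.25 ± 0.07, adjusted p 0.017), and that call was lost without WT novelty replicate 2 (-0.15) and without KO novelty replicate 1 (-0.24) or 2 (-0.26). E2f6 (-0.12 ± 0.06, adjusted p 0.17) and Pcgf6 (-0.07 ± 0.06, adjusted p 0.45) did not pass. The fallen genes were Max, Rnf2, Cbx1, Dnmt3a, Ehmt1 and Ehmt2, between -0.25 and -0.16, and with offsets fitted to strength 1 member of the list was lower. Without WT novelty replicate 2 or KO novelty replicate 2 the number was 0, and without KO novelty replicate 1 it was 1.

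The next lists hold genes grouped as H3K4 demethylases and methyltransferases, with cofactors, read at their own gene-end regions. For a gene with no listed start this can be either end. They are not limited to enzymes that act on trimethylation. Kdm5c itself had 61.6 and 72.1 CPM in WT and 59.9 and 60.9 in KO (-0.15 ± 0.07, edgeR adjusted p 0.12), and without WT novelty replicate 1 it passed at -0.26 (adjusted p 0.02). A mark at the gene start does not test the deletion. Of 11 genes listed as H3K4 demethylases or their cofactors 0 rose and 4 fell (median -0.15). Of all protein-coding representatives 5.02% were higher and 13.8% lower. Kdm5b, the relative of Kdm5c, had 94.4 and 99.6 CPM in WT and 81.0 and 82.8 in KO (-0.25 ± 0.06, adjusted p 0.0073), a call lost without WT novelty replicate 2 (-0.21) and KO novelty replicate 1 (-0.23). Kdm2a, Kdm1b and Riox1 fell by 0.22, 0.21 and 0.16 on the log2 scale, while Kdm5a (-0.12 ± 0.05, adjusted p 0.11) and Kdm1a (-0.15 ± 0.05, adjusted p 0.061) did not pass. Kdm1a was called with RLE factors (adjusted p 0.036), with DESeq2 (0.042) and in the fits to 8 and to 4 libraries (0.029 in each). Of the list, 1 was lower without WT novelty replicate 2 or KO novelty replicate 2, 2 without KO novelty replicate 1 and 1 with offsets fitted to strength.

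Of 21 genes of H3K4 methyltransferase complexes 1 rose and 8 fell (median -0.13). Kmt2b, Kmt2d, Kmt2a and Kdm6a were the largest falls, at -0.25, -0.23, -0.22 and -0.22. Leaving out WT novelty replicate 2 gave 0 lower members and leaving out KO novelty replicate 1 or 2 gave 2, with 5 under library totals and 1 with offsets fitted to strength. Setd1b, a methyltransferase gene with no listed start, rose in a wide region 1463 bp from 1 of its ends (chromosome 5, 123138457 to 123140577). The level went from 94.5 and 89.2 CPM in WT to 145 and 150 in KO (0.69 ± 0.05, edgeR adjusted p 1.4e-11). Kdm5C signal per base in this region was 5.03 in WT and 1.03 in KO. The neighbouring regions, looked at after the values were seen, did not rise with it. The region 49 bp from a gene end fell, with 41.5 and 40.8 CPM in WT and 31.4 and 32.5 in KO (-0.37 ± 0.08, edgeR adjusted p 0.0017). The region 50 bp from a gene end had 30.9 and 30.4 CPM in WT and 30.8 and 33.7 in KO (0.07 ± 0.08). The regions that begin at 123143292 and 123149701 were also called lower (-0.33 ± 0.10 and -0.32 ± 0.11). By the rule of the nearest region, 0 members of this list were higher.

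Immediate early transcription factor genes, the class that neuronal activity induces first, were almost level between genotypes. Of 24 members 0 rose and 2 fell (median -0.01), which were Srf at -0.24 ± 0.06 (edgeR adjusted p 0.0043) and Jund at -0.17 ± 0.05 (adjusted p 0.021). Both calls were lost without WT novelty replicate 2 (-0.16 and -0.15) and without KO novelty replicate 1 (-0.23 and -0.20), and Jund also without KO novelty replicate 2 (-0.15). Fos had 53.1 and 56.3 CPM in WT and 57.2 and 59.8 in KO (0.09 ± 0.06, adjusted p 0.33). Fosb (0.04 ± 0.05), Egr1 (-0.13 ± 0.07) and Nr4a1 (0.07 ± 0.06) did not pass either. At the start of Npas4 the libraries overlapped, with 45.5 and 51.1 CPM in WT and 48.2 and 45.4 in KO (-0.05 ± 0.07, adjusted p 0.71), and the sign turned without WT novelty replicate 2 (0.04). A second region, upstream of that start and inside the span of the Npas4 gene in RefSeq (chromosome 19, 5001097 to 5002393), was picked after its values were seen. It had 4.05 and 4.49 CPM in WT and 7.31 and 8.67 in KO (0.89 ± 0.17, adjusted p 0.00028), and under standard conditions the difference there was 0.64 ± 0.18.

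Among 30 effector genes of neuronal activity 2 rose and 2 fell (median 0.00), while under library totals 2 were higher and 0 lower and with offsets fitted to strength 5 were higher and 0 lower. Arc, which encodes a synaptic capsid-like protein, had 93.4 and 96.2 CPM in WT and 106 and 107 in KO (0.17 ± 0.05, edgeR adjusted p 0.028). The groups did not overlap, but the call was lost with RLE factors (adjusted p 0.058), with DESeq2 (0.07) and without any 1 of the 4 libraries (0.091 to 0.14). Dusp5, a MAP kinase phosphatase gene, had 68.0 and 71.2 CPM in WT and 77.0 and 82.6 in KO (0.20 ± 0.06, adjusted p 0.017), and was lost at 0.16 and 0.23 when WT novelty replicate 1 or 2 was left out and at 0.14 when KO novelty replicate 2 was. Bdnf had 64.9 and 72.1 CPM in WT and 64.4 and 64.7 in KO (-0.09 ± 0.07, adjusted p 0.4). Rheb (-0.18) and Sik1 (-0.20) fell, and both calls were lost without WT novelty replicate 2 (-0.12 and -0.17) or either KO novelty replicate (-0.19 and -0.20, then -0.16 and -0.20), that of Sik1 also without WT novelty replicate 1 (-0.22).

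Hippocampal neuron genes were called in both directions, at about the background rate. Of 32 pyramidal and granule cell genes 2 rose and 4 fell (median -0.02). Of all protein-coding representatives 5.02% were higher and 13.8% lower. Neurod6, a pyramidal neuron factor gene, had 49.1 and 53.9 CPM in WT and 65.8 and 68.4 in KO (0.38 ± 0.08, edgeR adjusted p 0.00058). C1ql2, a synaptic organizer gene of granule cells, had 42.8 and 45.1 CPM in WT and 32.9 and 30.1 in KO (-0.48 ± 0.09, adjusted p 0.00019). Both calls held in all 13 settings. Prox1, the granule cell identity factor gene, had 85.8 and 102 CPM in WT and 75.1 and 72.8 in KO (-0.35 ± 0.08, adjusted p 0.0024), a call lost without WT novelty replicate 2 (-0.21). Fezf2 (0.26), Emx1 (-0.30) and Bcl11b (-0.23) were also called, and without WT novelty replicate 2 none of these was (0.26, -0.24 and -0.07). Fezf2 and Emx1 were lost without either KO library as well (0.28 and -0.32 without replicate 1, 0.25 and -0.28 without replicate 2), and Bcl11b without KO novelty replicate 2 (-0.16).

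Synaptic genes changed at few members. Of 27 vesicle release genes only Sv2b rose, from 56.6 and 60.2 to 74.9 and 72.5 CPM (0.33 ± 0.06, edgeR adjusted p 0.00033), and it held in all 13 settings. Of 40 glutamate and GABA receptor and scaffold genes 0 rose and 4 fell, among them Grik3 (-0.28), Grm2 (-0.23) and Dlg1 (-0.22). The direction turned with the scaling, to 3 higher and 2 lower under library totals and 7 higher and 1 lower with offsets fitted to strength. All 4 were lost without WT novelty replicate 2 or KO novelty replicate 2. Of 37 genes of intellectual disability 1 rose, which was Nsd1, and 6 fell, among them Ehmt1 (-0.16 ± 0.05, edgeR adjusted p 0.038). These counts lie near the background, since 5.02% of all protein-coding representatives were higher and 13.8% lower. The 6 falls became 0 without WT novelty replicate 2 or KO novelty replicate 2, 1 without KO novelty replicate 1, 3 under library totals and 1 with offsets fitted to strength.

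The 3 glial lists had rises and no falls, but few of the rises held in all settings. Of all protein-coding representatives 5.02% were higher and 13.8% lower, and microglia genes, with 1 of 19 higher, were near the first share. Of 14 astrocyte genes 3 rose (median 0.16), with Ntsr2 going from 31.0 and 28.5 to 41.6 and 47.4 CPM (0.58 ± 0.08, edgeR adjusted p 1.1e-06) in all settings. Gjb6 (0.40 ± 0.11) and Gfap (0.38 ± 0.10) were called, but not without WT novelty replicate 2 (0.30 and 0.36) or KO novelty replicate 2 (0.31 at both). The defining markers Slc1a3, Sox9 and Gja1 lay at -0.02, -0.01 and -0.04, and the summed level of the list was 503 and 481 CPM in WT and 509 and 545 in KO. Of 18 oligodendrocyte lineage genes 3 rose (median -0.04), and 2 of these held in all settings. Gpr17, a receptor gene of immature oligodendrocytes, had 8.40 and 7.17 CPM in WT and 12.9 and 15.1 in KO (0.84 ± 0.13). Bcas1, of the same stage, had 1.18 and 0.870 CPM in WT and 3.3 and 2.97 in KO (1.63 ± 0.27). Opalin (0.47 ± 0.16, adjusted p 0.041) was lost without any 1 of the libraries (0.43 to 0.50). Mbp, Mog and Olig2 did not pass (-0.06, 0.08 and -0.10), and the list summed to 380 and 387 CPM in WT and 381 and 394 in KO.

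Of 19 microglia genes only P2ry12 rose (0.48 ± 0.16, edgeR adjusted p 0.037), and it was lost without WT novelty replicate 2 (0.38) and without KO novelty replicate 1 (0.56) or 2 (0.41), and at an adjusted p of 0.051 without WT novelty replicate 1. Interneuron genes gave 1 rise and 1 fall of 22. Cck had 92.5 and 98.7 CPM in WT and 115 and 114 in KO (0.26 ± 0.06, adjusted p 0.0018), and Gad1, the enzyme gene for GABA, had 37.7 and 45.8 CPM in WT and 31.7 and 28.4 in KO (-0.48 ± 0.10, adjusted p 0.00057), lost without WT novelty replicate 2 (-0.32). Of 27 vascular and mural genes Sox18 rose, from 34.2 and 35 to 47.1 and 48.8 CPM (0.47 ± 0.07, adjusted p 2e-05), and 5 fell (median -0.14), the largest being Ogn, Rgs5 (-0.51), Foxf2 (-0.42) and Foxd1 (-0.33). Without KO novelty replicate 1 the number lower was 0, and without WT novelty replicate 1 it was 2. The list summed to 472 and 460 CPM in WT and to 402.5 and 453 in KO, and the share of these cells in the tissue was not tested.

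**Figure D4:**
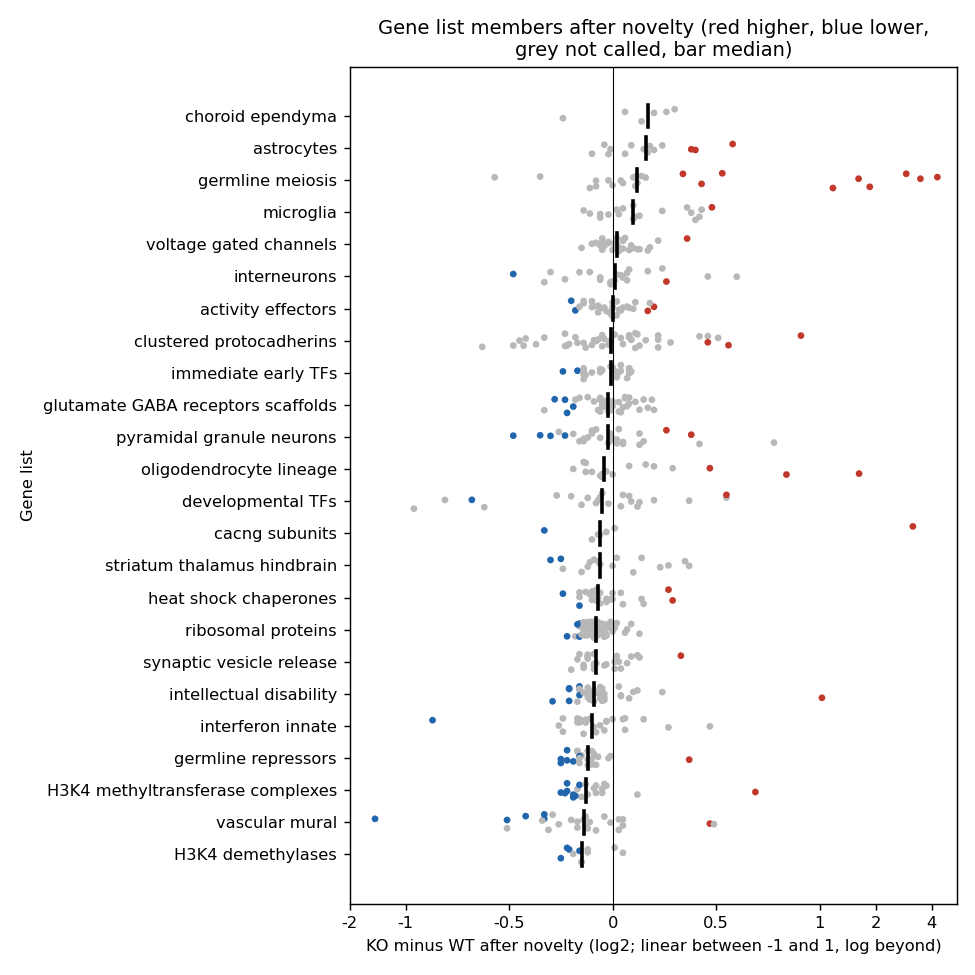
Difference between KO and WT after novelty (x axis, log2, linear between -1 and 1 and logarithmic beyond) for the representative region of each listed gene (1 point each, red higher, blue lower, grey not called), by gene list (y axis), with black bars at the list medians. Germ cell genes reach 4.29, Cacng6 stands at 3.17, and most lists lie close to the median of -0.08 of all protein-coding representatives.

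The remaining lists were quiet. Ribosomal protein genes had 0 of 78 higher and 4 lower (Rpl22, Fau, Rpl5 and Rps7, between -0.22 and -0.16), a smaller share than among all representatives, and 0 were lower with offsets fitted to strength or when replicate 2 of either genotype was left out. Leaving out KO novelty replicate 1 left 1 lower. Of the 6 measured choroid plexus and ependyma genes 0 were called (median 0.17), and their sum was 83.2 and 82.4 CPM in WT and 92.6 and 91.8 in KO. Of 26 interferon and innate immune genes only the start of Oas1a, an antiviral enzyme gene, was called, lower. Of 26 chaperone regions 2 rose, Hspa1a (0.29 ± 0.08) and Hspa1b (0.27 ± 0.07), near-identical copies whose counts are uncertain, and 2 fell, Hsf2 (-0.24) and Hsf1 (-0.16). Neither fall was called without WT novelty replicate 2 (-0.18 and -0.11) or KO novelty replicate 1 (-0.22 and -0.12), and Hsf1 was also not called without KO novelty replicate 2 (-0.20), under library totals (-0.12) or with offsets fitted to strength (-0.07). Neither rise was called without WT novelty replicate 1 (0.24 and 0.25), and Hspa1a was not called without KO novelty replicate 2 (0.24). Of 46 regions of clustered protocadherins 3 rose, all in the gamma cluster with its closely related exons, and 1 of them held in all settings (0.91 ± 0.18). With offsets fitted to strength 2 regions of this list were higher and 4 lower. Of 23 regions of developmental transcription factors Sim2 rose, from 15.8 and 14.6 to 23.5 and 21.0 CPM (0.55 ± 0.11), and Lhx1 fell (-0.68 ± 0.24, edgeR adjusted p 0.048), a call lost without WT novelty replicate 1 (-0.43) and without KO novelty replicate 1 (-0.61) or 2 (-0.73). Drd1 and Pde10a, of 17 genes of neighbouring brain regions, fell by 0.30 and 0.25 on the log2 scale, with neither called without KO novelty replicate 2 (-0.25 and -0.22) or WT novelty replicate 2 (-0.32 and -0.22).

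Whether the KO difference after novelty was other than that under standard conditions was tested as an interaction, in which the conditions share no library. edgeR called 0 of 35955 regions (0%), DESeq2 called 0, and 1055 regions had an unadjusted p under 0.05 in edgeR and 364 in DESeq2. In the libraries under standard conditions, 98.5% of the regions higher after novelty and 97.5% of those lower after novelty had a difference of the same sign, against 76.6% of all tested regions. The named rises had similar sizes in both, such as Ntn3 (1.72 after novelty and 1.71 under standard conditions), Nsd1 (1.03 and 1.07) and Rps4l (2.36 and 2.2). For Ssh1 the difference between conditions was -1.13 ± 0.66, and for Dym 0.83 ± 0.39. The named falls were more variable, with Mzt1 at -0.95 after novelty and -0.20 under standard conditions, and 1810007D17Rik at -0.88 and 0.20. None of these differences between conditions passed, and an absent call does not show that the conditions were alike.

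The 5 regions with the smallest interaction p, all with an edgeR adjusted p of 1, included Plk2 and Sirt1. A region inside Plk2, an activity-induced kinase gene (chromosome 13, 110397656 to 110399214), had 37.2 and 39.0 CPM in WT and 51.3 and 47.1 in KO after novelty, and 42.9 and 44.6 in WT and 46.6 and 40.0 in KO under standard conditions. Its KO difference was 0.37 ± 0.07 after novelty and -0.02 ± 0.08 without it. The start of Plk2 showed no such pattern, with 121 and 125 CPM in WT and 129 and 130 in KO after novelty. Sirt1, a deacetylase gene, had 89.0 and 93.3 CPM in WT and 83.2 and 79.5 in KO after novelty, against 61.5 and 74.2 in WT and 78.5 and 81.2 in KO under standard conditions. Here the WT libraries under standard conditions were the low ones. Rxfp1, a relaxin receptor gene, had 2.28 and 1.22 CPM in WT and 3.81 and 4.31 in KO after novelty (1.24 ± 0.28), and -0.21 ± 0.26 under standard conditions. The noncoding Gm39146 (difference of 1.51 ± 0.39) and the X-linked pseudogene Gm6206 (-0.40 ± 0.11) completed the set.

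**Figure D5:**
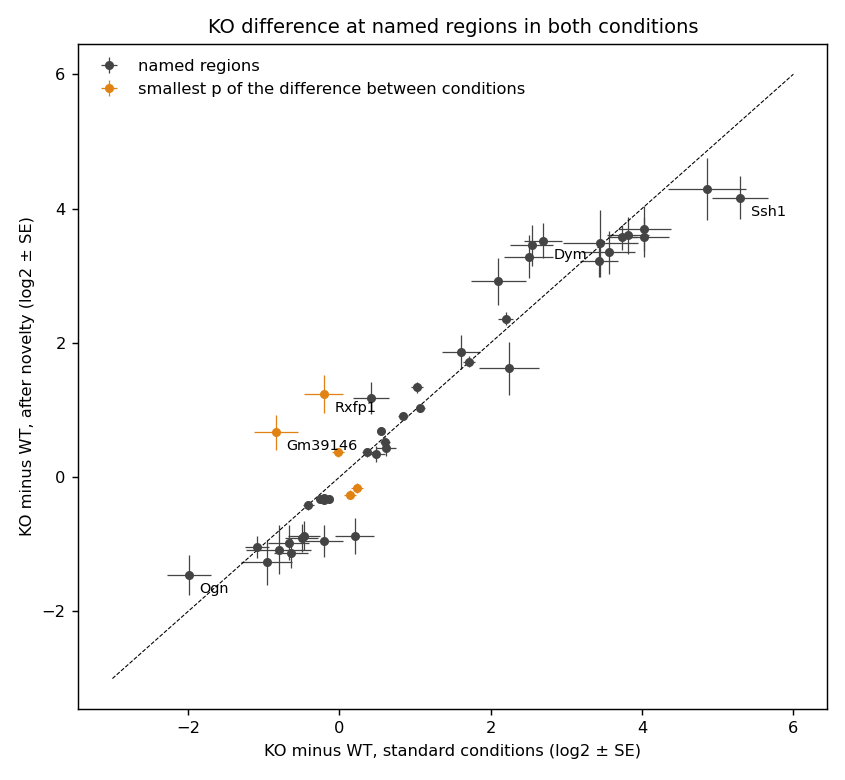
KO minus WT after novelty (y axis) against KO minus WT under standard conditions (x axis), both in log2 with SE bars, at the named regions, the called germ cell genes, Setd1b and Mga (dark) and at the 5 regions of smallest interaction p (orange). The dashed line marks equal differences, and the orange points, such as Rxfp1 at 1.24 and -0.21, were chosen for lying off it.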

How the data were processed

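H3K4me3 was measured by ChIP-seq with single-end reads. The deposited H3K4me3 files hold raw read counts per region and library, per the file headers. The build was mm10, and the tools named are Bowtie2 (2.2.9), then R (3.3) with DESeq2 (1.10.0), MACS2 (2.1.0) and SAMtools (1.3.1), per the submitters' processing notes. The deposited H3K4me1 and Kdm5C files are headed raw counts, but their values behave as summed base coverage, so they were read as signal, divided by region width, and not tested. The sources used here do not describe how the region set was made.

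The 9 repeated rows of 36005 were dropped. All 12 H3K4me3 libraries were fitted in edgeR 4.0.16 (R 4.3.3) with 1 mean for each of 6 groups, TMM factors, filterByExpr, quasi-likelihood F tests and Benjamini-Hochberg adjustment at 0.05. Standard errors derive from the F statistic. Genes came from RefSeq GRCm38.p6, in which 27025 of 49997 genes had a listed start, with a nearest gene taken within 50 kb. Alternatives were RLE factors, library totals, loess offsets fitted to region strength (limma 3.58.1), no filter, DESeq2 1.42.0, fits to 8 or 4 libraries, a replicate block and leaving out each library. The script was tested on simulated data.

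Named regions had an adjusted p under 0.05, a mean of at least 1 log2 CPM, a gene and no overlap between the groups: the 10 largest rises and falls, the 5 of smallest p each way from 5 log2 CPM, called members of 24 gene lists (709 entries), and a fixed set of activity and chromatin genes. Members and lists were chosen with earlier results of these data known. The intervals and the floor reflect counting error alone, because the reads carry no molecular identifiers and may repeat a molecule. With 2 libraries against 2, single-region permutation could not reach the threshold. Results for a few members of the lists are not reported here.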

Additional observations from a re-analysis of the deposited data

How the results depend on the processing

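Of 6118 called regions, 1535 higher and 103 lower ones were called in all 13 settings. The falls depended most on the processing: against 2137 lower regions, 969 were lower with library totals, 1227 with offsets fitted to region strength and 3371 in the fit to the 4 novelty libraries, which estimates the spread from these alone. Leaving out each library in turn gave 2239 to 4846 called regions, 1964 to 3184 higher and 275 to 1662 lower, with fewer samples in the fit and the lone library assumed to vary like the other groups. For the interaction, leaving out each library in turn gave 0 to 1 regions, the 1 without KO standard replicate 1. Same-numbered libraries did not deviate together (correlation 0.02 after novelty and -0.043 under standard conditions), so the numbers do not pair the samples; with the replicate block 5139 regions were called (3671 higher and 1468 lower) and 1 for the interaction. At the start of Npas4 the value ran from -0.13 without WT novelty replicate 1 to 0.04, reversed, without WT novelty replicate 2. The 124 named or listed regions include some, such as Fos and Npas4, that were not called and so had no call to lose. Among the 124, the number losing their call was 39 with strength offsets, 23 with library totals, 17 with DESeq2 and 18 with the replicate block. Calls were also lost when any 1 of the 4 novelty libraries was left out. The cause was not tested. At 3 counts, the floor of 0.0986 to 0.129 CPM limits what can be said of the weakest WT regions.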
